A study of Mus musculus with 6 samples.

Results

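Collagens and lysyl oxidases are the 49 genes of the deposited count table whose symbol is Col, a number, the letter a and a number (44 collagens), or Lox or Loxl1 to Loxl4 (5 lysyl oxidases), of 57186 genes in all. Their mRNA was measured by bulk RNA-seq in CD45-negative cells, that is cells without the pan-leukocyte surface protein CD45, sorted by FACS from tumours of MB49, a mouse bladder carcinoma cell line that came from a male C57BL/6 mouse. The study set 3 libraries from tumours of CRISPR Y-KO MB49 cells, which by their name carry a knockout aimed at the Y chromosome, beside 3 libraries from tumours of CRISPR Y-Scr MB49 cells, the study's control. In both groups the cells were grown as subcutaneous tumours in C57BL/6J mice, the tumours were taken at 500 mm3, and the batch label was the same. The labels do not say whether a group is 1 clone, or whether its replicates are separate animals. What the p-values weigh is thus the library-to-library spread, and that spread may be technical.

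Collagens are built from 3 chains wound into a triple helix, and the chains of most types come from several genes. Fibrillar collagens (types I, III and V among them) form the tensile fibres of connective tissue and of tumour stroma, type IV forms the sheet of the basement membrane, and type VI forms beaded filaments around cells. Lysyl oxidases are secreted copper enzymes that oxidise lysine side chains so that collagen and elastin molecules become cross-linked. Fibroblasts are the main source of fibrillar collagen in most tumours, while carcinoma cells can make basement membrane chains and other collagens themselves.

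Library totals ran from 42040955 to 52951031 counts. The 4 Y-linked genes Uty, Kdm5d, Ddx3y and Eif2s3y together had 47.3, 45.1 and 20.4 CPM (counts relative to library size after TMM scaling) in replicates 1, 2 and 3 of Y-KO, against 296, 327 and 344 CPM in the Y-Scr libraries. Y-KO replicate 3 stood apart from the other Y-KO libraries. Over 16567 genes, its median absolute log2 difference was 0.313 and 0.319 from Y-KO replicates 1 and 2, which differed from each other by 0.162, and 0.306 to 0.348 from the Y-Scr libraries, which differed among themselves by 0.122 to 0.181. For the genes given in full, the fit without that library is added where it changed the call. Ptprc, which encodes CD45 itself, had 293, 298 and 134 CPM in the Y-KO libraries, against 521, 577 and 601 CPM in the Y-Scr libraries, so the sorted cells held Ptprc mRNA in every library. The epithelial keratin Krt8 was abundant in every library (1914 to 2131 CPM in Y-KO libraries and 1414 to 1641 CPM in Y-Scr), whereas the urothelial markers Upk2 and Upk3a had no counts.

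Of the 49 genes, 35 had enough counts to be tested between the groups and 14 had not. The fibrillar chains Col1a1, Col3a1 and Col5a1, the X-linked basement membrane chain Col4a5 and the cross-linking enzyme Loxl2 were lower in Y-KO tumours, while the enzyme Loxl3 and the fibrillar chain Col5a3 were higher. That is 5 genes lower (14.3% of those tested, where 8.27% of all 17837 genes tested were lower) and 2 higher (5.71%, where 7.82% of all genes were higher), by edgeR's quasi-likelihood test at a Benjamini-Hochberg adjusted p under 0.05. In all, 20% of the tested collagens and lysyl oxidases passed, against 16.1% of all genes. The values of the groups did not overlap for 15 of the 35 (42.9%, against 37.7% of all genes), and the median log2 fold change was -0.06, against -0.03 over all genes. Over both directions together and all 6 libraries, the share of the set that passed was thus near that of genes in general. The share lower was above that of all genes and the share higher was below it, each on few genes. Without Y-KO replicate 3, 41.7% of the set tested were lower, against 17.7% of all genes. No test was made of these shares. In a bulk sample, fewer cells of a type and less RNA per cell cannot be told apart in any of these differences.

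**Figure D1:**
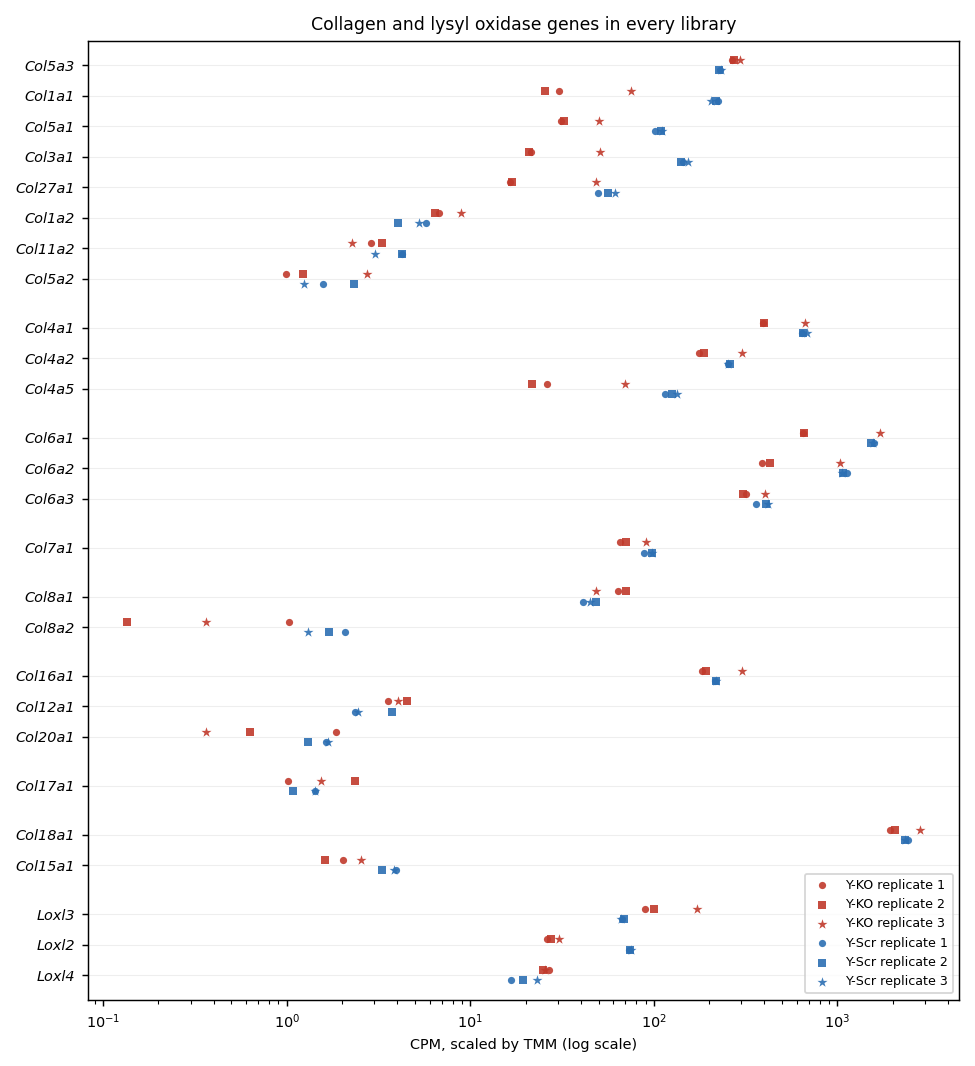
Level of each collagen and lysyl oxidase with a mean of at least 1 CPM in a group, in every library, on a log axis of CPM, grouped by family from the fibrillar chains at the top to the lysyl oxidases at the bottom. In each row the Y-KO libraries are red and drawn above the Y-Scr libraries in blue, and circles, squares and stars are replicates 1, 2 and 3. For Col1a1, Col3a1, Col5a1 and Loxl2 all 3 Y-KO libraries lie below all 3 Y-Scr libraries, whereas for Col6a1 and Col18a1 Y-KO replicate 3 lies above every other library.

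Of the genes called, the major fibril-forming chains Col1a1 and Col3a1 fell furthest. Col1a1, the main chain of type I collagen (chromosome 11, 94827050 to 94843868, GRCm39), had 30.3, 25.5 and 75.2 CPM in replicates 1, 2 and 3 of Y-KO, against 223, 219 and 204 CPM in the Y-Scr libraries. All Y-KO libraries lay below all Y-Scr libraries, and replicate 3 lay between its partners and Y-Scr. The means were 43.7 ± 27.4 CPM in Y-KO libraries and 215 ± 10.0 CPM in Y-Scr (SD, n = 3 each), a 4.93-fold lower level. On the log2 scale the change was -2.30 with an SE of 0.36 (edgeR adjusted p = 0.00440). Without Y-KO replicate 3 the log2 fold change was -2.95 (edgeR adjusted p = 3.41e-12). These values rest on 1129 to 3314 counts per Y-KO library and 9750 to 12218 counts per Y-Scr library.

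Col3a1, the sole chain of type III collagen, which is laid down with type I in soft and healing tissue (chromosome 1, 45350698 to 45388866), had 21.4, 20.9 and 50.6 CPM in the Y-KO libraries, against 144, 140 and 153 CPM in the Y-Scr libraries. The groups did not overlap, and replicate 3 was again the highest of the Y-KO libraries. The log2 fold change was -2.24 with an SE of 0.32 (edgeR adjusted p = 0.00271), a 4.71-fold lower level in Y-KO. It remained called with each library left out, at an edgeR adjusted p of 0.0214 or less.

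Col5a1, the chain of type V collagen that starts fibrils and sets their width (chromosome 2, 27776437 to 27929526), had 31.1, 32.3 and 50.01 CPM in the Y-KO libraries, against 102, 109 and 111 CPM in the Y-Scr libraries. Its groups did not overlap, and the 3 Y-Scr values lay close together. It fell by 1.504 on the log2 scale (SE 0.18, edgeR adjusted p = 0.00115), which is 2.84-fold, and it passed the test under every one of the 16 alternative settings. Col5a3, a further type V chain, went the other way: 268, 273 and 294 CPM in the Y-KO libraries, against 231, 227 and 233 CPM in the Y-Scr libraries. That difference was small, 1.21-fold (0.27 on the log2 scale with an SE of 0.07, edgeR adjusted p = 0.0393), although no Y-KO value reached down to a Y-Scr value. It was no longer called when any library other than Y-KO replicate 3 was left out (edgeR adjusted p from 0.0746 without Y-Scr replicate 1 to 0.165 without Y-Scr replicate 2), and by library size alone its edgeR adjusted p was 0.268.

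Other fibrillar chains were low or not called. Col1a2, which in most tissues supplies the other chain of type I collagen, had 6.73, 6.41 and 8.92 CPM in the Y-KO libraries, against 5.72, 4.04 and 5.23 CPM in the Y-Scr libraries. All Y-KO values lay above all Y-Scr values, but the log2 fold change of 0.56 did not pass the test (edgeR adjusted p = 0.126), and without Y-KO replicate 3 it was 0.39 (edgeR adjusted p = 0.185). Col27a1, a fibrillar chain best known from cartilage, had 16.4, 16.97 and 48.5 CPM in the Y-KO libraries, against 49.6, 56.3 and 61.7 CPM in the Y-Scr libraries. Replicate 3 sat just under the lowest Y-Scr library, the log2 fold change was -1.03 (edgeR adjusted p = 0.103), and without replicate 3 it was -1.74 (edgeR adjusted p = 1.43e-08). Col5a2, the usual partner of Col5a1, was at 0.990, 1.22 and 2.72 CPM in Y-KO libraries and 1.57, 2.33 and 1.23 CPM in Y-Scr, and Col11a2 was at 2.89, 3.29 and 2.27 CPM in Y-KO libraries and 4.24, 4.22 and 3.03 CPM in Y-Scr. Neither passed the test (edgeR adjusted p = 0.947 and 0.301). Of the 9 fibrillar genes tested, 3 were thus lower, 1 was higher and 5 were not called.

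The promoters of 3 chains that fell (Col3a1, Col5a1 and Col4a5), of the chain that rose and of the type I chain that was not called are shown so that the sequence upstream of neighbours in function can be compared. Each run is the stretch just before the gene's RefSeq start in the build GRCm38.p6, read 5′ to 3′ on the gene's strand, with capitals marking the motifs found. The TATA box, which positions the start in some promoters, was searched as TATAAA. The GC box, which binds factors of the Sp family, was searched as GGGCGG, and the AP-1 site, which binds Jun and Fos proteins, as TGANTCA. The CCAAT box was searched as the letters of its name. All were searched on both strands, and no matches overlapped in these windows. Col3a1 (chr1:45311288-45311537, plus strand), Col5a1 (chr2:27886175-27886424, plus strand) and Col4a5 (chrX:141475169-141475418, plus strand) were lower in Y-KO. Col5a3 (chr9:20815068-20815317, minus strand) was higher, and Col1a2 (chr6:4505368-4505617, plus strand) was not called.
Col3a1: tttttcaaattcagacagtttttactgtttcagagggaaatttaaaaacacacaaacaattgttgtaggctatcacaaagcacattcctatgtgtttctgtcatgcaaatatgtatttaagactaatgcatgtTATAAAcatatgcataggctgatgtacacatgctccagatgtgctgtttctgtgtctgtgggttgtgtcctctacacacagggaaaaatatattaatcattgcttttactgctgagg
Col5a1: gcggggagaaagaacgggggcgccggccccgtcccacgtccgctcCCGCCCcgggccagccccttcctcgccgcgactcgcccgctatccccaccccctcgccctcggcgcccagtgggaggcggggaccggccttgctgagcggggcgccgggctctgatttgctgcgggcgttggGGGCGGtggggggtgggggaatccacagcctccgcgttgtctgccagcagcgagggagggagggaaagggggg
Col4a5: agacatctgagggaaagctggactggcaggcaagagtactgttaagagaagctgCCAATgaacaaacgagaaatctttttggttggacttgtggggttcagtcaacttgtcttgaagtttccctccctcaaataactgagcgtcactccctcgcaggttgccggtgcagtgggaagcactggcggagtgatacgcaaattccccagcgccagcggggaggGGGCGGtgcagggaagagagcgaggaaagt
Col5a3: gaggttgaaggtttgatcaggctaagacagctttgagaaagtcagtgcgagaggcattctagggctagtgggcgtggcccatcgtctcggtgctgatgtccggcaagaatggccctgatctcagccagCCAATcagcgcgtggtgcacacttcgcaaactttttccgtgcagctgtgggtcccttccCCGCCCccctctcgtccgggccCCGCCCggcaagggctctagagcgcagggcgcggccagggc
Col1a2: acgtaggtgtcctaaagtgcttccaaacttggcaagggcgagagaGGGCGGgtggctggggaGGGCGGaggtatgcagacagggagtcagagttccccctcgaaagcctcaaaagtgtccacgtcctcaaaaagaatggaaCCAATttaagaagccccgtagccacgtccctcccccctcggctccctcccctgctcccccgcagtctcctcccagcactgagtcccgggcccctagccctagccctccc

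Col3a1 held a TATA box 117 bases before the start and no GC box. Col5a1 held no CCAAT box and had GC boxes at 205 and 73 bases, Col4a5 a CCAAT box at 196 bases and a GC box at 30 bases, Col5a3 a CCAAT box at 122 bases and GC boxes at 63 and 41 bases, and Col1a2 GC boxes at 205 and 188 bases and a CCAAT box at 109 bases. The promoters of Col3a1, Col5a1 and Col4a5, which are 3 of the 5 genes that fell, had no motif common to all 3 among the 4 searched. Col5a1 and Col4a5 both held a GC box, as did Col5a3 and Col1a2. The promoters of Col1a1 and Loxl2, which also fell, were not matched. RefSeq promoters were matched for 36 of the 49 genes (39 promoters), and of these 39 windows 23 held a GC box, 13 a CCAAT box, 5 a TATA box and 1, that of Col6a1, an AP-1 site. Over all 32851 promoters of the same length, 32.7% held a GC box, 33.8% a CCAAT box, 12.4% a TATA box and 6.75% an AP-1 site. A match in letters is a description and not evidence of a bound site.

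Among the basement membrane chains, Col4a5 fell. Col4a5 is a chain of the kidney glomerular basement membrane that is also found in skin and smooth muscle, and its gene lies on the X chromosome (140258381 to 140472230). It had 26.1, 21.8 and 69.4 CPM in replicates 1, 2 and 3 of Y-KO, against 114, 125 and 133 CPM in the Y-Scr libraries. No Y-KO library reached the Y-Scr range, although replicate 3 covered 64.8% of the log2 distance between the mean of replicates 1 and 2 and the Y-Scr mean. The log2 fold change was -1.67 with an SE of 0.38 (edgeR adjusted p = 0.0215), a 3.18-fold lower level, and without Y-KO replicate 3 it was -2.38 (edgeR adjusted p = 1.65e-10). The call was lost when any other library was left out, with an edgeR adjusted p of 0.0717 without Y-KO replicate 1, 0.0511 without Y-KO replicate 2 and 0.0752, 0.0836 and 0.0956 without Y-Scr replicates 1, 2 and 3. Col4a6, whose gene starts 1308 bases from that of Col4a5 on the opposite strand, was not tested, with 0, 2 and 4 counts in Y-KO libraries and 8, 14 and 24 counts in Y-Scr.

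The far more abundant classical pair did not pass. Col4a1, the main chain of type IV collagen in nearly every basement membrane, had 394, 399 and 667 CPM in the Y-KO libraries, against 640, 651 and 682 CPM in the Y-Scr libraries. Replicates 1 and 2 lay far below Y-Scr and replicate 3 lay inside its range. The log2 fold change was -0.44 (edgeR adjusted p = 0.155), and without replicate 3 it was -0.73 (edgeR adjusted p = 6.66e-08). Col4a2, its partner in the same trimer, had 177, 187 and 303 CPM in the Y-KO libraries, against 254, 261 and 254 CPM in the Y-Scr libraries, so that replicate 3 was the highest of all 6. Its log2 fold change was -0.20 (edgeR adjusted p = 0.512), and -0.49 without replicate 3 (edgeR adjusted p = 1.50e-05). The genes of this pair start back to back on chromosome 8 and share 22 exon bases.

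In type VI collagen Y-KO replicate 3 stood far from its partners. Col6a1 had 648, 653 and 1707 CPM in replicates 1, 2 and 3 of Y-KO, against 1589, 1514 and 1563 CPM in the Y-Scr libraries. Replicates 1 and 2 were at less than any Y-Scr library and replicate 3 was above all of them. Over all libraries the change was -0.63 on the log2 scale, with an SE of 0.33 (edgeR adjusted p = 0.244), and without replicate 3 it was -1.26 (edgeR adjusted p = 6.16e-11). Col6a2, its partner chain, had 386, 427 and 1035 CPM in the Y-KO libraries, against 1128, 1076 and 1055 CPM in the Y-Scr libraries. Here replicate 3 stayed just under the lowest Y-Scr library, and the log2 fold change was -0.82 (edgeR adjusted p = 0.130), or -1.42 without replicate 3 (edgeR adjusted p = 1.29e-10). Col6a3, the long chain that completes the trimer, differed less: 319, 305 and 404 CPM in Y-KO libraries and 360, 410 and 419 CPM in Y-Scr, with a log2 fold change of -0.21 (edgeR adjusted p = 0.273), or -0.35 without replicate 3 (edgeR adjusted p = 0.00107). None of the 4 type VI genes tested passed edgeR's adjusted threshold, 1 had an unadjusted p under 0.05, and limma-voom called 1 and DESeq2 called 0.

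Of the 13 genes tested in the remaining collagen families, none passed edgeR's adjusted threshold over all 6 libraries, 4 had an unadjusted p under 0.05, and DESeq2 called 2 and limma-voom 0. Col18a1, a basement membrane proteoglycan whose end fragment is endostatin, was the most abundant collagen by CPM, with 1944, 2049 and 2807 CPM in the Y-KO libraries, against 2427, 2339 and 2331 CPM in the Y-Scr libraries. Replicates 1 and 2 lay below every Y-Scr library and replicate 3 above every one (log2 fold change -0.06, edgeR adjusted p = 0.790). Col16a1, a fibril-associated chain, showed the same order, with 183, 193 and 302 CPM in Y-KO libraries and 216, 219 and 219 CPM in Y-Scr (log2 fold change 0.05, edgeR adjusted p = 0.875). Without Y-KO replicate 3 both were lower in Y-KO, with log2 fold changes of -0.25 for Col18a1 (edgeR adjusted p = 0.000543) and -0.22 for Col16a1 (edgeR adjusted p = 0.0131), so that the direction for Col16a1 changed with that library.

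Col7a1, the chain of the anchoring fibrils under epithelia, had 65.0, 70.7 and 90.7 CPM in Y-KO libraries and 88.8, 97.6 and 97.8 CPM in Y-Scr (log2 fold change -0.33, edgeR adjusted p = 0.124). Col8a1, a short chain that forms networks in vessel walls and the cornea, had 64.0, 70.7 and 48.5 CPM in Y-KO libraries and 41.0, 48.4 and 45.1 CPM in Y-Scr (log2 fold change 0.45, edgeR adjusted p = 0.0700). Here, as for Col11a2 and Col20a1, replicate 3 had the lowest of the Y-KO values, next to the highest Y-Scr library for Col8a1. Without replicate 3 the log2 fold change of Col7a1 was -0.48 (edgeR adjusted p = 0.000256) and that of Col8a1 was 0.59 (edgeR adjusted p = 0.000169). Col15a1, close kin of Col18a1, had 2.02, 1.62 and 2.54 CPM in Y-KO libraries and 3.95, 3.32 and 3.83 CPM in Y-Scr, without overlap and without a call over all libraries (log2 fold change -0.84, edgeR adjusted p = 0.0655). Without replicate 3 it was called, at -1.02 (edgeR adjusted p = 0.0142).

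The others with a mean of at least 1 CPM in a group lay near that level. Col12a1, a fibril-associated chain, had 3.55, 4.51 and 4.04 CPM in Y-KO libraries and 2.34, 3.72 and 2.43 CPM in Y-Scr. Col8a2, the partner of Col8a1, had 1.03, 0.135 and 0.363 CPM in Y-KO libraries and 2.08, 1.71 and 1.31 CPM in Y-Scr. These groups did not overlap for Col8a2, on 6 to 50 counts in Y-KO, and its log2 fold change of -1.72 did not pass (edgeR adjusted p = 0.119), although without Y-KO replicate 1 its edgeR adjusted p was 0.0281. Col17a1, the hemidesmosome collagen, had 1.01, 2.35 and 1.54 CPM in Y-KO libraries and 1.43, 1.08 and 1.42 CPM in Y-Scr. Col20a1 had 1.86, 0.632 and 0.363 CPM in Y-KO libraries and 1.63, 1.30 and 1.68 CPM in Y-Scr. Col12a1, Col17a1 and Col20a1 overlapped between the groups and did not pass (edgeR adjusted p = 0.240, 0.652 and 0.481).

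The lysyl oxidases moved in opposite directions. Loxl2, which oxidises lysines of type IV collagen among other substrates (chromosome 14, 69846517 to 69933283), had 26.2, 27.4 and 30.6 CPM in replicates 1, 2 and 3 of Y-KO, against 73.2, 74.3 and 74.9 CPM in the Y-Scr libraries. Both groups were tight, and replicate 3 stayed with its partners, at 13.1% of the way to Y-Scr. The log2 fold change was -1.40 with an SE of 0.09 (edgeR adjusted p = 8.14e-05), a 2.64-fold lower level that passed the test under all 16 alternative settings, with a highest adjusted p of 0.00900 among them. Of its exon bases, 5.70% are shared with other genes, so their reads may not all have been counted for Loxl2.

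Loxl3, a relative of Loxl2 that is required for palate and spine development in mice (chromosome 6, 83011154 to 83029543), had 89.0, 99.6 and 173 CPM in the Y-KO libraries, against 66.6, 68.4 and 66.4 CPM in the Y-Scr libraries. All Y-KO libraries lay above all Y-Scr libraries, and replicate 3 lay furthest from Y-Scr. Loxl3 rose by 0.84 on the log2 scale (SE 0.22, edgeR adjusted p = 0.0353), which is 1.79-fold, and by 0.49 without replicate 3 (edgeR adjusted p = 0.000182). Leaving out Y-Scr replicate 1, 2 or 3 ended the call (edgeR adjusted p = 0.117, 0.122 and 0.134), and so did scaling by library size alone (edgeR adjusted p = 0.0681). Of its exon bases, 11.6% overlap Htra2 on the opposite strand, and counting did not use strand.

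Loxl4 had 26.9, 24.8 and 25.6 CPM in Y-KO libraries and 16.6, 19.4 and 23.2 CPM in Y-Scr. Its groups did not overlap, and the log2 fold change of 0.38 did not pass (edgeR adjusted p = 0.103), although it did without Y-KO replicate 3, at 0.39 (edgeR adjusted p = 0.0398). Lox and Loxl1 are named although they were under 1 CPM, a choice made after their values were seen, because they are the best known enzymes of the family. Lox had 0.289, 0.496 and 0.817 CPM in Y-KO libraries and 0.548, 0.494 and 0.150 CPM in Y-Scr, and Loxl1 had 0.248, 0.677 and 0.454 CPM in Y-KO libraries and 0, 0.180 and 0.150 CPM in Y-Scr. Neither passed the test (edgeR adjusted p = 0.747 for Lox and 0.256 for Loxl1). The lysyl oxidase mRNA of these libraries was thus mainly Loxl3, Loxl2 and Loxl4. Per kilobase of exon, Loxl3 was at 26.2 CPM and Loxl2 at 5.19 CPM in Y-KO, against 14.6 CPM for Loxl3 and 13.7 CPM for Loxl2 in Y-Scr.

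**Figure D2:**
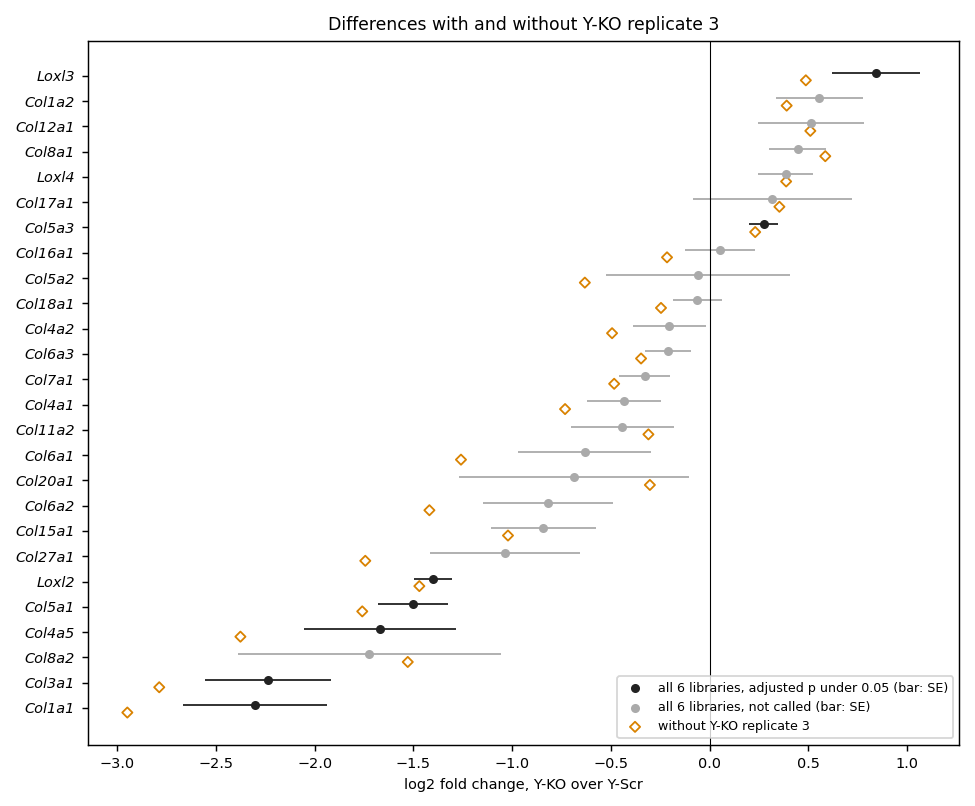
Log2 fold change, Y-KO over Y-Scr, of each tested collagen and lysyl oxidase with a mean of at least 1 CPM in a group, as filled circles with bars of 1 SE for the fit of all 6 libraries (black where called, grey where not) and open diamonds for the fit without Y-KO replicate 3. Leaving that library out moves Col6a1 to -1.26 and Col6a2 to -1.42, while Loxl2 stays near -1.4.

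Per kilobase of exon, the order of the chains differed between the groups. In Y-KO the highest were Col18a1 (323 ± 67.1 CPM per kilobase), Col6a1 (229 ± 139) and Col6a2 (74.0 ± 43.7), whereas in Y-Scr they were Col6a1 (355 ± 8.70), Col18a1 (337 ± 7.58) and Col6a2 (130 ± 4.53; SD, n = 3 each). Within each Y-KO library Col18a1 was above Col6a1 (277, 292 and 400 against 148, 149 and 390 CPM per kilobase). The gap was small in replicate 3, which held the highest Y-KO value of both. Within each Y-Scr library Col6a1 was the higher (363, 346 and 357 against 346, 333 and 332 CPM per kilobase). This order was not tested. Col1a1 was twelfth in Y-KO at 6.66 ± 4.18 CPM per kilobase and eighth in Y-Scr at 32.8 ± 1.52 CPM per kilobase, where Col5a3, Col6a3 and Col16a1 were within its SD. Col1a2 stood far lower, at 0.592 ± 0.110 CPM per kilobase in Y-KO libraries and 0.402 ± 0.0696 CPM per kilobase in Y-Scr.

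**Figure D3:**
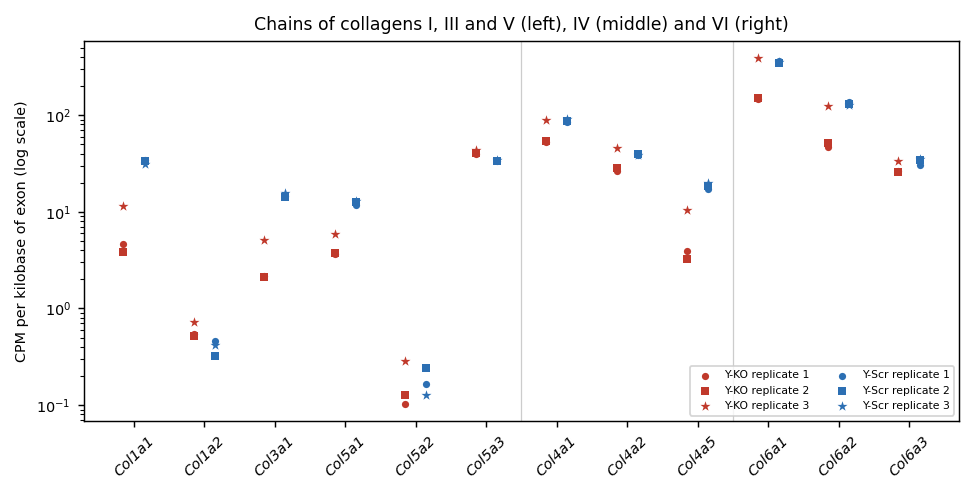
Level of the chains of collagens I, III and V, of collagen IV and of collagen VI in each library, as CPM per kilobase of exon on a log axis, with Y-KO libraries in red left of Y-Scr libraries in blue and stars for replicate 3. Col1a1 lies at 3.88 to 11.5 CPM per kilobase in Y-KO and 31.1 to 34.02 CPM per kilobase in Y-Scr, while Col1a2 lies under 1 in all libraries.

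Chains of 1 trimer were compared within each library per length, which takes the scaling between libraries out. The log2 ratio of Col1a1 to Col1a2 was 3.09, 2.91 and 3.997 in the Y-KO libraries, against 6.21, 6.68 and 6.21 in the Y-Scr libraries. That is a geometric mean ratio of 10.1 in Y-KO and 82.4 in Y-Scr, with Col1a1 the higher in every library. The length used is that of all annotated exons together, which sets the size of such a ratio but not its difference between groups. The log2 ratio of Col4a1 to Col4a2 was 0.98, 0.92 and 0.97 in Y-KO and 1.16, 1.15 and 1.25 in Y-Scr, and that of Col6a1 to Col6a2 was 1.67, 1.54 and 1.65 in Y-KO and 1.42, 1.42 and 1.49 in Y-Scr. In each of the 3 pairs the groups did not overlap, and the differences were -3.03, -0.23 and 0.18. In each the two-sided p of an exact permutation was 0.1, the lowest that 3 libraries against 3 can give, and 0.1 after adjustment over the 3 pairs. Replicate 3 kept the Y-KO ratio for Col4a1 to Col4a2 and for Col6a1 to Col6a2, although the level of all these chains in it lay near or above Y-Scr.

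Added up, the 49 genes held 0.450%, 0.466% and 0.786% of all counts in replicates 1, 2 and 3 of Y-KO, against 0.805%, 0.814% and 0.819% in the Y-Scr libraries. In TPM (counts per exon length, scaled to the same total in every library) their sum was 1863, 1952 and 3385 in Y-KO and 3584, 3740 and 3810 in Y-Scr. The mean in Y-KO was 64.7% of that in Y-Scr (exact two-sided permutation p = 0.1, the smallest possible), and it was 51.4% without Y-KO replicate 3. In TMM-scaled CPM the sums were 4739, 4925 and 8209 in Y-KO and 7792, 7682 and 7751 in Y-Scr, so that replicate 3 exceeded all Y-Scr libraries (exact two-sided permutation p = 0.4). In TPM all 3 Y-KO libraries were below every Y-Scr library, whereas in CPM replicates 1 and 2 were and replicate 3 was not. Col18a1 made up 38.1% of the summed CPM in Y-KO libraries and 30.6% in Y-Scr.

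Y-KO replicate 3 was above replicates 1 and 2 in 19 of the 26 genes of the set with a mean of at least 1 CPM in a group (73.1%), against 39.3% of all 14256 tested genes at that level. In 17 of the 26 (65.4%), replicates 1 and 2 were both below every Y-Scr library, against 31.7% of the 14256. In 8 of these 17 (47.1%) replicate 3 was not below, against 33.1% of the 4525 such genes. These shares are a description, with no test. Without replicate 3, 36 genes of the set were tested, and 15 were lower (41.7%, where 17.7% of all 18958 genes tested were lower) and 4 higher (11.1%, where 16% of all were higher), namely Loxl3, Loxl4, Col5a3 and Col8a1. In that fit replicates 1 and 2, which lie close to each other, are the only Y-KO libraries, so the spread within Y-KO rests on them alone.

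Replicate 3 had no part in that fit, so its own level is a separate measurement. Its position below is not fully separate, since both ends of the scale come from the libraries that made the calls. On a log2 scale where 0% is the mean of replicates 1 and 2 and 100% is the Y-Scr mean, it lay at a median of 88.5% over the 15 lower genes, from 13.1% for Loxl2 to 320% for Col16a1. Over all 2961 genes called lower in the same fit with at least 1 CPM in a group, the median was 38.5% (quartiles -15.9% and 81.9%). Replicate 3 reached at least the lowest Y-Scr library in 7 of the 15 (46.7%) and in 25.7% of the 2961. Col4a1, Col4a2 and the chains of types VI, XVI and XVIII lay near or past the Y-Scr level, Col1a1, Col3a1, Col4a5 and Col5a1 part of the way, and Loxl2 close to replicates 1 and 2. Over the 5 genes called lower in all 6 libraries the median was 45.2%, against -2.26% over the 1346 such genes in all with at least 1 CPM in a group (quartiles -41.2% and 30.0%), but there replicate 3 itself took part in the call.

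**Figure D4:**
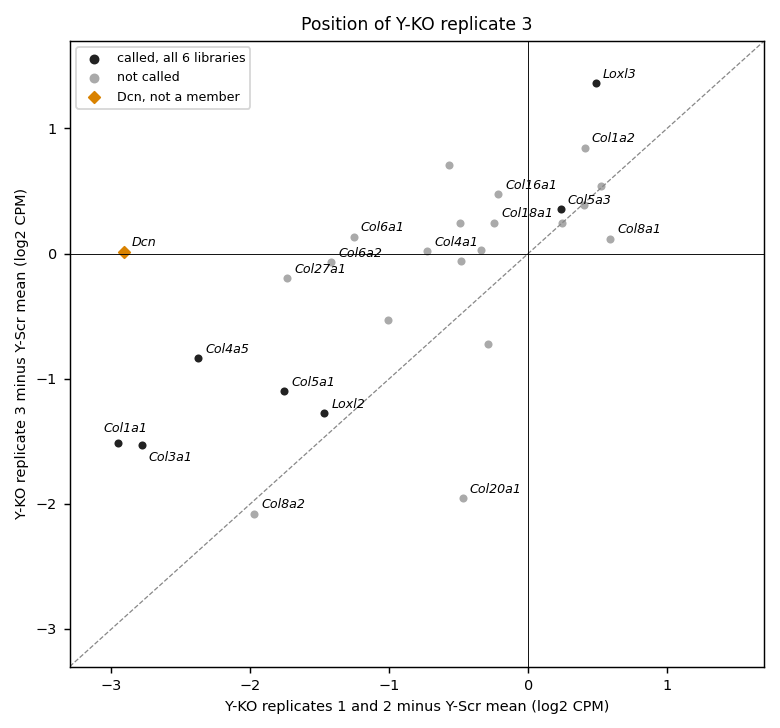
Difference from the Y-Scr mean in log2 CPM, with Y-KO replicates 1 and 2 (mean) on the x axis and Y-KO replicate 3 on the y axis, for the 26 genes with at least 1 CPM in a group and for the fibril partner Dcn. On the dashed line replicate 3 equals its partners, and on the horizontal line at 0 it equals Y-Scr: Loxl2 lies near the dashed line, Col1a1 and Col3a1 between the lines, and Col4a1, Col6a1 and Dcn near or above 0.

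The 23 remaining genes contributed little mRNA. The 9 tested with a mean under 1 CPM in both groups were Col2a1, Col4a4, Col6a4, Col9a3, Col14a1, Col22a1, Col23a1, Lox and Loxl1. Their highest value in any library was 1.40 CPM, their log2 fold changes ran from -0.58 to 2.06, and none was called by edgeR (lowest adjusted p 0.256, with 0 at an unadjusted p under 0.05), DESeq2 or limma-voom. The 14 that were not tested had 0 to 52 counts over all 6 libraries and at most 0.454 CPM in any of them. Col6a6 had no count, which allows up to 0.0219 CPM in Y-KO libraries and 0.0196 CPM in Y-Scr, for 3 counts over a group. Such limits cover counting error only. The filter on low counts left these 14 out of the main fit, and at this depth a difference in them can be missed. With no filter 48 of the 49 genes were tested, and none of the 14 was called. Without Y-KO replicate 3 Col4a6 was tested and not called (log2 fold change -3.64, edgeR adjusted p = 0.104).

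Genes that act on collagen were looked at through 5 lists of textbook function, with 71 genes of which 61 were tested, 7 were higher and 5 lower. Over all 17837 genes tested, 7.82% were higher and 8.27% lower. These shares also stand beside the counts of each list and of the cell type markers below, and none of those counts was tested. Of the enzymes and chaperones that modify and fold the chains, 3 of 17 tested were higher and 14 were not called. Plod3, which hydroxylates and glycosylates collagen lysines, had 176, 190 and 162 CPM in Y-KO libraries and 126, 115 and 116 CPM in Y-Scr (log2 fold change 0.57, edgeR adjusted p = 0.00436). The prolyl 3-hydroxylases P3h2 and P3h1 were higher by 0.89 (edgeR adjusted p = 0.0138) and 0.43 (edgeR adjusted p = 0.0158) on the log2 scale. Leaving out Y-KO replicate 1, Y-Scr replicate 2 or Y-Scr replicate 3 ended the call of P3h2 (edgeR adjusted p = 0.0503, 0.0764 and 0.0582), and leaving out Y-KO replicate 2, Y-Scr replicate 2 or Y-Scr replicate 3 ended that of P3h1 (edgeR adjusted p = 0.0588, 0.0855 and 0.0860). Serpinh1, the collagen-specific chaperone HSP47, had 423, 415 and 452 CPM in Y-KO libraries and 444, 418 and 418 CPM in Y-Scr, so the groups overlapped (edgeR adjusted p = 0.932). Of the 8 tested genes for export and propeptide removal, none passed edgeR's adjusted threshold, 2 had an unadjusted p under 0.05, and DESeq2 and limma-voom each called 1.

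Of the 14 tested fibril partners, 2 were lower. Prelp, a leucine-rich proteoglycan that links basement membranes to collagen, had 1.53, 2.41 and 9.08 CPM in Y-KO, against 80.5, 77.5 and 79.3 CPM in Y-Scr. It was the steepest fall among these partners, by 4.19 on the log2 scale (edgeR adjusted p = 0.00213; -5.34 without Y-KO replicate 3), and replicate 3 was again the highest Y-KO library. Fn1, the fibronectin onto which collagen fibrils assemble, had 599.9, 613 and 857 CPM in Y-KO libraries and 905, 956 and 1020.4 CPM in Y-Scr (log2 fold change -0.48, edgeR adjusted p = 0.0450). That call was lost with any library but Y-KO replicate 3 left out, with an edgeR adjusted p of 0.140 and 0.139 without Y-KO replicates 1 and 2 and of 0.114, 0.158 and 0.201 without Y-Scr replicates 1, 2 and 3. Dcn, decorin, which coats collagen I fibrils, had 54.1, 57.6 and 423 CPM in Y-KO libraries and 441, 407 and 409 CPM in Y-Scr. Replicate 3 of Y-KO was at the Y-Scr level for Dcn while its Col1a1 and Col3a1 were not, and Dcn was not called (log2 fold change -1.23, edgeR adjusted p = 0.278), while without replicate 3 it was at -2.91 (edgeR adjusted p = 4.36e-13). Without replicate 3, 11 of 16 tested fibril partners were lower by the same test, where 17.7% of all genes were: Prelp, Fn1, Bgn, Omd, Lum, Dpt, Dcn, Sparc, Ogn, Postn and Fmod.

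Basement membrane partners went in both directions, 4 higher and 2 lower of 14 tested. Lama3 (36.1, 34.5 and 39.5 CPM in Y-KO, against 22.9, 22.6 and 25.7 CPM in Y-Scr), a laminin chain of epithelial basement membranes, was higher by 0.63 on the log2 scale (edgeR adjusted p = 0.00654), and this call was kept with each library left out. Agrn, Nid1 and Lamc1 were higher and Nid2 and Lamb3 lower, each with a call that ended when 1 library was left out (edgeR adjusted p up to 0.0782 for Agrn, 0.1001 for Nid1, 0.115 for Lamc1, 0.187 for Nid2 and 0.166 for Lamb3). Among 8 tested collagen receptors, Itga2, the α chain of the α2β1 collagen integrin, had 3.05, 1.76 and 0.999 CPM in Y-KO, against 9.34, 11.98 and 10.7 CPM in Y-Scr. It fell by 2.46 on the log2 scale (edgeR adjusted p = 0.00332) and was lowest in replicate 3, where most collagens were highest. Itga10, of another collagen integrin, had 15.5, 20.2 and 54.1 CPM in Y-KO libraries and 38.6, 36.2 and 35.7 CPM in Y-Scr and was not called (log2 fold change -0.30, edgeR adjusted p = 0.666), while without replicate 3 it was at -1.05 (edgeR adjusted p = 9.23e-06).

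Some markers of cells that could hold these mRNAs also differed between the groups. The 15 fibroblast markers summed to 153, 159 and 177 CPM in Y-KO libraries and 314, 295 and 299 CPM in Y-Scr, with 3 of 13 tested lower (Thy1, Clec3b and Fbln1) and 10 not called. Mfap4 had no counts. Thy1 had 48.6, 54.5 and 35.1 CPM in Y-KO libraries and 163, 149 and 156 CPM in Y-Scr, whereas Pdgfra, the platelet-derived growth factor receptor of most fibroblasts, had 10.8, 10.8 and 18.5 CPM in Y-KO libraries and 10.3, 10.6 and 14.4 CPM in Y-Scr. Thy1 alone made up most of the difference between the sums, so they do not speak for the other markers. Twist2 was higher in Y-KO without overlap, but was not called (edgeR adjusted p = 0.0713). Islr, a secreted protein of mesenchymal cells, was highest in Y-KO replicate 3, with 3.38, 4.74 and 25.7 CPM in Y-KO libraries and 13.7, 15.7 and 14.7 CPM in Y-Scr (edgeR adjusted p = 0.739, and 1.16e-06 without replicate 3). The 10 pericyte and smooth muscle markers summed to 5.74, 6.79 and 9.88 CPM in Y-KO libraries and 15.7, 16.1 and 14.1 CPM in Y-Scr. Of the 6 tested, none passed edgeR's adjusted threshold, 2 had an unadjusted p under 0.05, and DESeq2 called 1 and limma-voom 2. The 10 markers of blood endothelium summed to 40.3, 40.2 and 24.2 CPM in Y-KO libraries and 44.2, 38.6 and 45.5 CPM in Y-Scr, so the groups overlapped. Of the 9 tested, none passed edgeR's adjusted threshold, 2 had an unadjusted p under 0.05, and DESeq2 called 1 and limma-voom 0.

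The 10 epithelial markers summed to 3276, 3321 and 3467 CPM in Y-KO libraries and 2735, 2439 and 2407 CPM in Y-Scr, with 4 higher and 1 lower of 7 tested. Krt8 and Krt18 made up most of each sum, and with Krt14 and Krt19 they were the 4 higher. Epcam was lower, with 0.908, 1.22 and 0.999 CPM in Y-KO and 3.07, 4.62 and 3.29 CPM in Y-Scr (edgeR adjusted p = 0.00586). Cdh1 and Krt5 were also lower in Y-KO without overlap, but were not called (edgeR adjusted p = 0.142 and 0.0626). The 7 leukocyte markers summed to 2652, 2718 and 1223 CPM in Y-KO libraries and 3292, 3198 and 3281 CPM in Y-Scr, with 2 of 7 lower. The 7 macrophage markers summed to 1079, 1074 and 605 CPM in Y-KO libraries and 547, 512 and 503 CPM in Y-Scr, with 4 of 7 higher. In replicate 3 the leukocyte and macrophage sums were thus the lowest of the Y-KO libraries, while most collagens were at their highest there. The 5 Schwann cell and nerve markers summed to 11.2, 12.4 and 13.6 CPM in Y-KO libraries and 3.91, 3.88 and 4.77 CPM in Y-Scr, with 1 of 2 tested higher. The sums for adipocytes, skeletal muscle and cartilage stayed at or below 3.86 CPM in every library. The part of these cell types in the collagen values was not tested.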

How the data were processed

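The authors deposited unnormalized counts of reads per gene for each library. Per the file headers, featureCounts 1.5.3 was run with the Ensembl release 112 annotation of GRCm39 and no other option, which by its defaults ignores strand, counts reads rather than pairs, and drops those that fit several genes or places. Per the submitters' processing notes, FastQC 0.12.1, MultiQC 1.13, Trimmomatic 0.39 and STAR 2.5.2b were also used. Poly-A RNA went into a stranded kit, per the labels' protocols. Of the counts from 2 to 20, 80.3% to 82.3% per library were even, as paired reads counted singly would give.

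Symbols came from an older annotation matched by gene ID (51880 of 57186, 90.7%). Groups followed the titles. In R 4.3.3, edgeR 4.0.16 (filterByExpr with a minimum count of 10 and total of 15, TMM, quasi-likelihood test, group alone) was fitted to all genes, and 17837 were tested with Benjamini-Hochberg adjustment at 0.05. The script was tested on simulated data. The SE is the log2 fold change divided by the square root of F. CPM use the TMM-adjusted library size, log2 CPM a prior count of 2, and CPM per kilobase and TPM the deposited exon length.

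Genes with a mean of at least 1 CPM in a group are given in full. In each related list, genes with the smallest p among those called are named, and others where they bear on a collagen. The genes and lists were chosen with earlier results of these data known. Alternatives were library size alone, upper-quartile and DESeq2 size factors, DESeq2 1.42.0, limma-voom 3.58.1, both filters, the replicate number as a block, each library left out, close libraries summed and counts halved. Promoters came from RefSeq, GRCm38.p6.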

Additional observations from a re-analysis of the deposited data

How the results depend on the processing

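Over the 16 alternatives, the 7 collagens and lysyl oxidases called kept their direction throughout, and their call in 89 values against 23 in which it was lost. Col5a1 and Loxl2 kept the call in all 16. Genes of the set called higher (2 in all libraries) numbered 0 by library size alone, 1 by upper-quartile scaling and 0 with close libraries summed (Y-KO replicates 1 and 2, Y-Scr replicates 2 and 3), and those called lower (5) numbered 9 with no filter on low counts and 2 with close libraries summed, where Col1a1 and Col3a1 had edgeR adjusted p-values of 0.0673 and 0.0533. With 1 library left out, 0 to 4 were higher and 4 to 15 lower. Of all genes, 1395 were higher and 1476 lower. By library size alone, which moved the median over all genes to -0.17 from -0.03 on the log2 scale, these were 730 and 2255, and 24.5% of the calls were higher, against 48.6% with TMM. With close libraries summed they were 136 and 360, and with 1 library left out they ran from 461 to 3029 and from 560 to 3364. In the related lists 7 were higher and 5 lower, against 3 and 9 by library size alone, 0 and 2 with close libraries summed, and 2 to 11 and 2 to 22 with 1 library left out, while 9 were lower by limma-voom and 12 with no filter. The causes were not tested.

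The replicate numbers did not pair the samples, since the correlations of same-numbered libraries were -0.008, 0.005 and -0.014. With the replicate number as a block, 1 collagen (not Col5a3, edgeR adjusted p = 0.0938) or lysyl oxidase was higher and 6 were lower, 7 genes of the related lists were higher and 3 lower, and 946 of all genes were higher and 1120 lower.

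Directions reversed for genes that were not called. With 1 library left out, Col18a1 ran from -0.25 to 0.036 (0.0051 without Y-KO replicate 2), Col16a1 from -0.22 to 0.18, Col5a2 from -0.63 to 0.24, Col17a1 from -0.038 to 0.57 and Lox from -0.019 to 0.76 on the log2 scale. With close libraries summed, Col18a1 was at 0.017 and Col5a2 at 0.20, and by library size alone Col16a1 was at -0.089. The ratios between chains and the summed level kept their direction in each alternative. The ratios moved by less than the larger SD of the groups, and the summed level by less than the SD of Y-KO. That SD was wide (854 TPM), as replicate 3 lay apart, so it is a loose limit for the summed level. The Y-KO mean was 64.7% of Y-Scr in TPM and 77.0% in CPM (exact two-sided permutation p = 0.1 and 0.4). Depth limits the 14 genes of the set that had too few counts to be tested.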
